A study of Mus musculus with 13 samples.

Results

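Oxidative phosphorylation (OXPHOS) genes were followed in EPLMs (early bone marrow progenitors of lymphoid and myeloid fate) from mice that overexpress the transcriptional coactivator OBF1. The genes were chosen by name, from the platform annotation of the array, as the Nduf genes of complex I with their assembly factors, the Sdh genes of complex II, the Uqcr genes of complex III, the nuclear Cox4 to Cox8 genes of complex IV (Cox6a2 left out) and the Atp5 genes of complex V. They comprise 89 genes, out of 18193 genes that have a probe set with 1 gene symbol, and 177 of the 45037 probe sets. Complex I contributed 44 genes, complex II 4, complex III 8, complex IV 16 and complex V 17. By role, 74 are subunits, 8 are complex I assembly factors and 7 are isoforms known from particular tissues or states. Each gene is described by its brightest probe set over the EPLM arrays.

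EPLMs are bone marrow progenitors that express B220, c-kit and CD93 but lack NK1.1, and they were sorted by these markers, with 1 mouse per Mouse 430v2 GeneChip. BCS mice carry a transgene with an HA-tagged human OBF1 cDNA driven by the murine heavy chain enhancer and a heavy chain variable promoter, so it is expressed from early B lineage cells on. Several founder lines were obtained, and the line used for the arrays is not stated. WT mice are littermates without the transgene. Both genotypes were on a mixed background of B6CF1 and C57BL/6 and were 7 weeks old, and 3 BCS and 3 WT mice were compared for EPLMs out of 13 arrays in the series. Large preB arrays of the series are not used here.

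The respiratory chain passes electrons from NADH (complex I) or succinate (complex II) through ubiquinone, complex III and cytochrome c to complex IV, which reduces oxygen. The proton gradient built on the way drives the synthesis of ATP by complex V. Most subunits are encoded in the nucleus and imported, while a few of the membrane-bound ones are encoded by the mitochondrial genome. Lymphoid progenitors use this pathway along with glycolysis, and the need for both changes with proliferation and with the stage of differentiation.

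RefSeq promoters (assembly GRCm38.p6), which reach from 250 bases before to 50 bases after the start of a gene, were matched to 74 of the 89 genes. The 250 bases before the start are shown for Ndufv2 (chr17:66101560-66101809, minus strand) and Uqcrfs1 (chr13:30545317-30545566, minus strand), both higher in BCS EPLMs. They are also shown for Ndufs4 (chr13:114388095-114388344, minus strand), the only one of the 74 with an octamer, the motif that recruits OBF1 through Oct1 or Oct2, and for Atp5k (chr5:108434400-108434649, minus strand), which carries a site for NRF1, a textbook activator of nuclear OXPHOS genes. Each run reads 5′ to 3′ on the strand of the gene, and capitals mark a motif.
Ndufv2: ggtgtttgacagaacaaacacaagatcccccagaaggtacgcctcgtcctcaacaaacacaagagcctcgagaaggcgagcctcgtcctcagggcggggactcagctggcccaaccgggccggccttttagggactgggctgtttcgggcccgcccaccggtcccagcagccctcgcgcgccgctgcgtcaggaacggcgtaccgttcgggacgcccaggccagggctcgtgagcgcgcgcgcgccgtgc
Uqcrfs1: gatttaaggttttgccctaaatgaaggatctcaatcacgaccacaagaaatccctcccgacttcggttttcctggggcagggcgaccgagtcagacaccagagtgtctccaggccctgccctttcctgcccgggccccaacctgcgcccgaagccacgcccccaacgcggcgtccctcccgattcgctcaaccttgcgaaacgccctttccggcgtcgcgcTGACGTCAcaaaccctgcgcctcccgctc
Ndufs4: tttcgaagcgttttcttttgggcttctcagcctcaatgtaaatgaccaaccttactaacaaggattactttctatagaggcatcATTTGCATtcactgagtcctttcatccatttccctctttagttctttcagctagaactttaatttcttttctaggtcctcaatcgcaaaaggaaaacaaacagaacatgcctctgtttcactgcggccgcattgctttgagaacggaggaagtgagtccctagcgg
Atp5k: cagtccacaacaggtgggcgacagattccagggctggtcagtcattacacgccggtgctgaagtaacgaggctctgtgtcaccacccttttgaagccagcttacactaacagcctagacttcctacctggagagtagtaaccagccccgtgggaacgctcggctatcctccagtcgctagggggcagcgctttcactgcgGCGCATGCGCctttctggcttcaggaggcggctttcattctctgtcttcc
In Uqcrfs1 the capitals mark the palindromic cAMP response element TGACGTCA, in Ndufs4 the octamer ATGCAAAT on the opposite strand, and in Atp5k a palindromic NRF1 site of 10 letters, while the shown stretch of Ndufv2 holds none of the 5 motifs searched.

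Across the 74 promoters, both strands searched, the NRF1 site, in the 10 letters capitalized for Atp5k, was found in 6 genes, or 8.11%, against 1.07% of all 27025 genes with a promoter entry. A YY1 core of 11 letters was found in 4 genes, or 5.41%, against 0.755% of all genes, and the ETS motif of GABPA (CCGGAAGT) in 5 genes, or 6.76%, against 4.31%. The octamer (ATGCAAAT) was found in 1 gene, or 1.35%, against 1.97% of all genes. The cAMP response element (TGACGTCA), which was added after the promoters had been seen, occurred in 3 genes, or 4.05%, against 2.03%. In all, 18 of the 74 genes held at least 1 of these letter strings. These are matches of letters in a fixed window and not measured binding.

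OXPHOS genes were among the brightest genes of EPLMs. Their median level lay at percentile 91.9 of all genes, with 26 genes at a mean intensity of 10000 or more, 45 between 1000 and 10000, 8 between 100 and 1000 and 10 under 100, where the median of every array was 20. Intensities of different probe sets are not set against each other as amounts of transcript. The brightest genes of each complex were Ndufa1 of complex I (mean over the 6 arrays 18357), the iron-sulfur subunit gene Sdhb of complex II (7626), Uqcrb of complex III (26314), Cox5a of complex IV (25900) and Atp5h of complex V (24099).

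**Figure D1:**
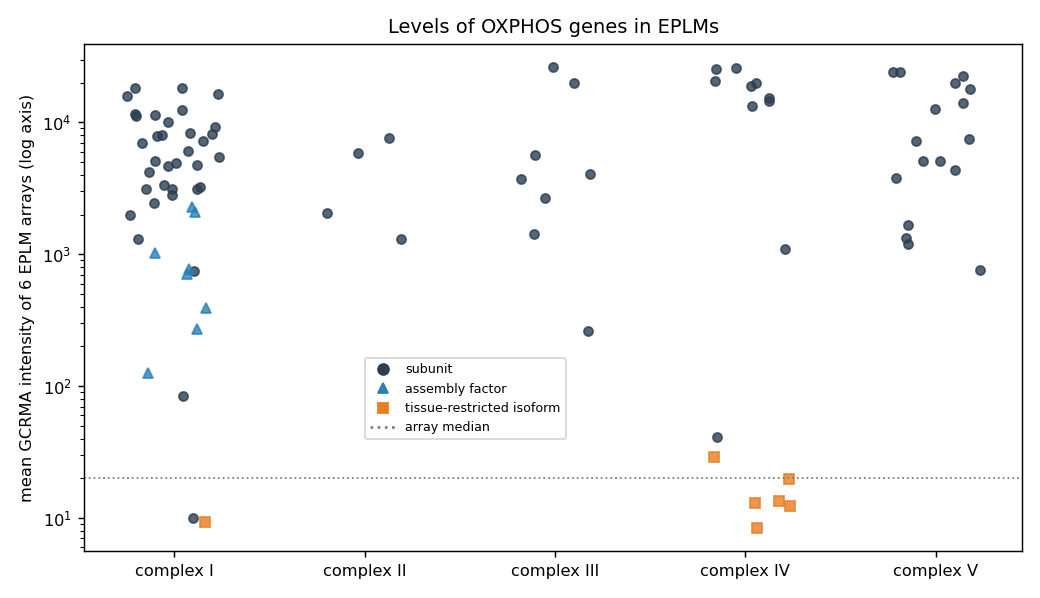
Mean GCRMA intensity over the 6 EPLM arrays (log axis) of each of the 89 OXPHOS genes, by complex, with subunits as circles, assembly factors as triangles, tissue-restricted isoforms as squares and the array median of 20 as a dotted line. Most subunits lie above 1000, and all 7 isoforms lie under 100.

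The 10 genes under 100 include the 7 isoforms. Cox4i2, known from lung, lay between 12.3 and 14.5 on the 6 arrays, against 18133 to 20071 for Cox4i1, its ubiquitous counterpart, on a different probe set. Cox6b2, Cox7b2 and Cox8c, known from testis, and Cox8b, known from heart and skeletal muscle, ranged from 7.82 to 31.2 over all arrays. Ndufa4l2, which is induced by hypoxia in other cells, lay between 8.82 and 10.4. These intensities hardly exceed background, and the changes of these isoforms are given only as values. The other 3, Ndufb4, Cox8a and Ndufb1, are ubiquitous subunits whose single-symbol probe sets were dim. A brighter probe set that also reads the copies Ndufb4b and Ndufb4c averaged 3954 over the 6 arrays, so the dim value of Ndufb4 (10.0) does not speak for the gene.

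In BCS EPLMs, 3 of the 89 OXPHOS genes rose and none fell at an adjusted p under 0.05 (limma over all probe sets). The genes that rose are Ndufaf6, Ndufv2 and Uqcrfs1. At an unadjusted p under 0.05, limma gave 19 higher and 1 lower gene and the methods' t-test 12 higher and 2 lower, of which none passed the adjustment. The 3 higher genes make up 3.37% of the OXPHOS genes. Among all 18193 genes, 3.15% rose and 4.7% fell, and among the 4883 genes with a mean intensity of at least 1000, where a call is easier to reach, 5.61% rose and 8.74% fell. The share of OXPHOS genes that rose was thus near that of all genes and under that of bright genes. At the thresholds of the methods (a t-test p under 0.01 with medians at least 2-fold apart), 0 of the 89 genes were counted, and 4 had such a p without the fold.

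The means of 65 of the 89 genes were higher in BCS than in WT EPLMs, or 73.0%, against 51.7% of all genes and 53.7% of bright genes, most of them by little. The median log2 change was 0.09 for the OXPHOS genes, 0.01 for all genes and 0.02 for bright genes. In 22 OXPHOS genes every BCS array lay above every WT array (24.7%, against 14.5% of all genes and 22.8% of bright genes). In 3 genes every BCS array lay below every WT array (3.37%, against 14.2% of all genes and 20.6% of bright genes), and these were Ndufa3, Atp5h and Cox4i2, the last near background. At an unadjusted p under 0.05, 21.3% of OXPHOS genes were higher and 1.12% lower, against 11.3% and 11.7% of all genes and 19.4% and 18.3% of bright genes. The genes share arrays, and these shares are descriptions. The 95% interval of the change lay within 1.5-fold either way (0.58 on the log2 scale) for 78 of the 89 genes.

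**Figure D2:**
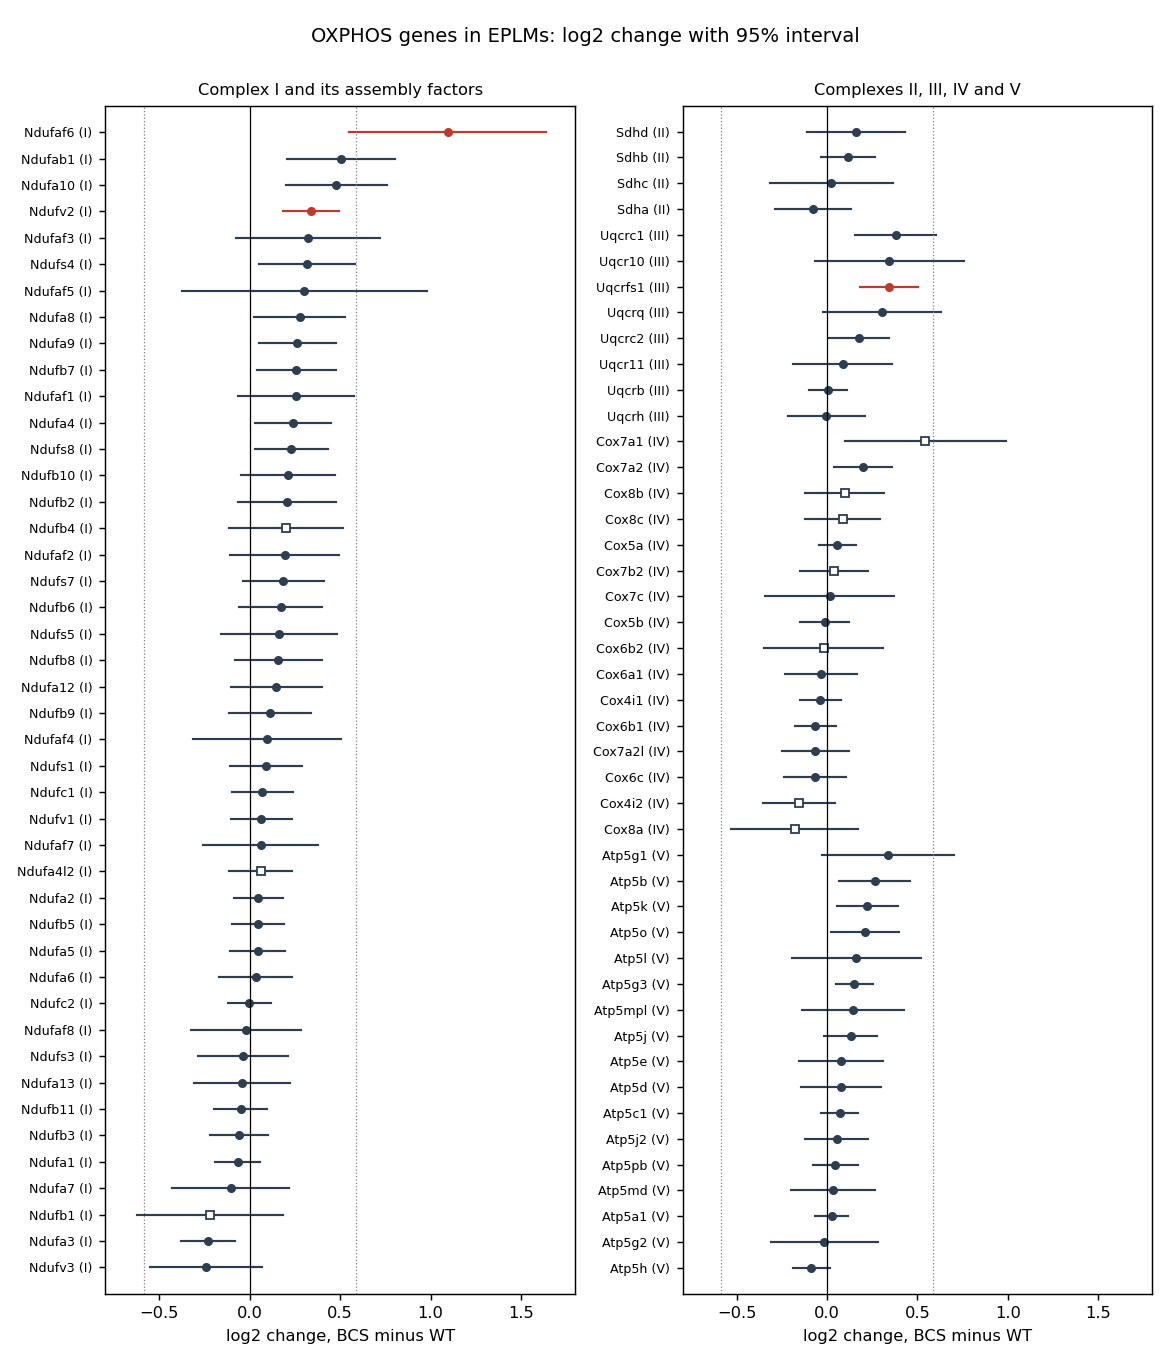
Log2 change between BCS and WT EPLMs (BCS minus WT, x axis) of each OXPHOS gene with its 95% interval from limma, complex I on the left and complexes II to V on the right. The 3 genes with an adjusted p under 0.05 are red, open squares are genes with a mean intensity under 100, and dotted lines mark a 1.5-fold change. Most points lie right of 0 and within the dotted lines.

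Complex I, which has 44 of the 89 genes, held 2 of the 3 that rose. Its median log2 change was 0.13, and 33 genes had higher means in BCS EPLMs. These counts include the assembly factors. Without them and Ndufa4l2, the median was 0.11 over 35 genes, of which 25 had higher means and 1, Ndufv2, rose. Ndufv2 encodes an iron-sulfur subunit of the module that oxidizes NADH. Its brightest probe set had intensities of 9799, 10779 and 10562 in BCS EPLMs, against 8065, 7854 and 8720 in WT EPLMs. The genotypes did not overlap, and the log2 change was 0.34 (standard error, SE, 0.07, adjusted p = 0.0221, limma), a 1.26-fold rise. Both other probe sets of Ndufv2 rose as well, by 0.32 (adjusted p = 0.0184, limma) and by 0.44 (adjusted p = 0.0125, limma) on the log2 scale. No other OXPHOS gene had more than 1 probe set past the threshold.

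Ndufaf6, an assembly factor of complex I, had the largest change of all 89 genes. Its intensities were 379, 652 and 582 in BCS EPLMs, against 291, 197 and 256 in WT EPLMs, a log2 change of 1.09 (SE 0.24, adjusted p = 0.0328, limma). The lowest BCS array was replicate 1, still above the highest WT array. As a group, the 8 complex I assembly factors had a median log2 change of 0.22, and 7 of 8 had higher means, but Ndufaf6 alone passed the test. Every BCS array lay above every WT array in 3 of the 8 (Ndufaf1, Ndufaf2 and Ndufaf6), against 14.5% of all genes and 22.8% of bright genes. Ndufaf6 has 1 probe set on the array.

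Several further complex I genes were higher on every BCS array without passing the adjustment, and these were chosen for mention after their values were seen. Ndufab1 encodes the mitochondrial acyl carrier protein. Its intensities were 4564, 5628 and 6345 in BCS EPLMs, against 3873, 3444 and 4275 in WT EPLMs (log2 change 0.50, SE 0.13, adjusted p = 0.0639, limma). Ndufa10, an accessory subunit, had 4047, 5252 and 5585 in BCS EPLMs, against 3683, 3561 and 3343 in WT EPLMs (log2 change 0.48, SE 0.12, adjusted p = 0.0616, limma). In both genes BCS replicate 1 was nearest to the WT arrays.

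Ndufs4 encodes an accessory subunit that stabilizes the NADH-oxidizing module, and its promoter holds the octamer shown above, at 166 bases before the start. Its brightest probe set had 2247, 2404 and 1932 in BCS EPLMs, against 1659, 1777 and 1833 in WT EPLMs (log2 change 0.32, SE 0.12, adjusted p = 0.182, limma). Another, weaker Ndufs4 probe set rose, with 146, 156 and 130 in BCS EPLMs, against 88.3, 88.4 and 86.5 in WT EPLMs (log2 change 0.70, SE 0.17, adjusted p = 0.0436, limma). All 4 probe sets of Ndufs4 were higher in the mean in BCS EPLMs, and the call differs between them.

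Ndufa3, another accessory subunit, ran the other way. Its intensities were 9774, 8542 and 9276 in BCS EPLMs, against 10593, 11081 and 10737 in WT EPLMs (log2 change -0.23, SE 0.07, adjusted p = 0.0841, limma). Its second bright probe set gave the same direction (log2 change -0.24, adjusted p = 0.0965, limma). By limma it was the only OXPHOS gene lower at an unadjusted p under 0.05, and the methods' t-test added Cox4i2, which lies near background. Ndufa1, the brightest complex I gene, had 17128, 17659 and 18996 in BCS EPLMs, against 18113, 19553 and 18694 in WT EPLMs, which overlap (log2 change -0.07, 95% interval -0.19 to 0.06). Ndufa4, which is named for complex I but is now counted as a subunit of cytochrome c oxidase, had a log2 change of 0.24 (adjusted p = 0.203, limma). A probe set read by both Ndufs6 and its copy Ndufs6b, and therefore not counted, had a log2 change of 0.38 (adjusted p = 0.0523, limma).

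**Figure D3:**
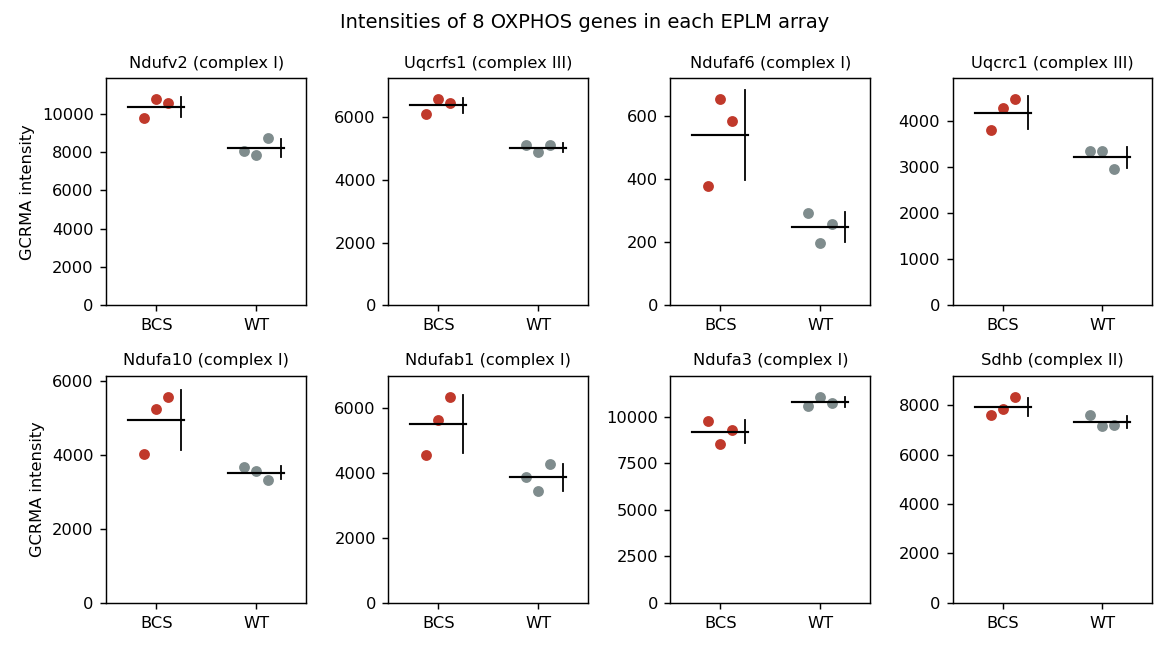
GCRMA intensities (linear axis from 0) of 8 OXPHOS genes in the 3 BCS and the 3 WT EPLM arrays, points for single mice, horizontal lines for means and vertical lines for the SD. Ndufv2, Uqcrfs1, Ndufaf6, Uqcrc1, Ndufa10 and Ndufab1 lie higher on every BCS array, Ndufa3 lies lower on every BCS array, and Sdhb overlaps.

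Complex II, which also works in the tricarboxylic acid cycle, had 4 genes of which none passed the test (0 also by the methods' t-test and 0 at an unadjusted p under 0.05 by limma), with a median log2 change of 0.07. Sdha, the flavoprotein, had 6380, 5301 and 5533 in BCS EPLMs, against 6528, 5704 and 5887 in WT EPLMs (log2 change -0.08, 95% interval -0.29 to 0.13). Sdhb, the iron-sulfur protein, had 7606, 7848 and 8338 in BCS EPLMs, against 7620, 7156 and 7188 in WT EPLMs (log2 change 0.12, 95% interval -0.04 to 0.27). The membrane anchors Sdhc and Sdhd had log2 changes of 0.02 (95% interval -0.32 to 0.36) and 0.16 (95% interval -0.11 to 0.43). In all 4 genes the genotypes overlapped.

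Complex III had the highest median log2 change of the complexes, 0.24 over 8 genes, with higher means in 7. Uqcrfs1, the Rieske iron-sulfur protein, rose. It had 6109, 6586 and 6463 in BCS EPLMs, against 5124, 4886 and 5102 in WT EPLMs (log2 change 0.34, SE 0.07, adjusted p = 0.0245, limma), a 1.27-fold difference with tight replicates in both genotypes. Uqcrc1, a core protein of the complex, had 3797, 4278 and 4480 in BCS EPLMs, against 3342, 3349 and 2950 in WT EPLMs (log2 change 0.38, SE 0.10, adjusted p = 0.0636, limma). It did not pass, although the genotypes did not overlap.

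The other complex III genes were less apart. Uqcr10 and Uqcrq had log2 changes of 0.34 (SE 0.18) and 0.30 (SE 0.14), each with overlapping genotypes. Uqcrc2, the other core protein, had 19497, 20686 and 23425 in BCS EPLMs, against 19997, 17777 and 18514 in WT EPLMs (log2 change 0.17, adjusted p = 0.25, limma). The brightest, Uqcrb, a small matrix-side subunit, had 26996, 25989 and 26061 in BCS EPLMs, against 24779, 27366 and 26694 in WT EPLMs, a log2 change of 0.00 (95% interval -0.10 to 0.11). The other probe set of Uqcrb, which was dimmer, had a log2 change of 0.18 (adjusted p = 0.386, limma).

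Complex IV had a median log2 change of -0.02 over 16 genes, and 9 of the 16 had lower means in BCS EPLMs. That median turned above 0 (up to 0.02) without BCS replicate 1, BCS replicate 2, WT replicate 2 or WT replicate 3. Of the 16 genes, 7 had a mean intensity under 100, and these enter the median and the counts. Cox4i2, Cox6b2 and Cox8a are dim genes among those with lower means. None of the 16 passed the test by limma or by the methods' t-test. At an unadjusted p under 0.05, limma gave 0 lower and 2 higher genes, Cox7a2 and the near-background Cox7a1. At that p, 11.3% of all genes were higher and 11.7% lower. Cox5a, the brightest, had 25096, 27552 and 26566 in BCS EPLMs, against 25671, 24779 and 25737 in WT EPLMs (log2 change 0.06, 95% interval -0.05 to 0.16). Cox4i1, which holds an allosteric site for ATP, had 18133, 18621 and 19552 in BCS EPLMs, against 18910, 20071 and 18818 in WT EPLMs (log2 change -0.04, 95% interval -0.15 to 0.07). Cox6a1 and Cox6b1 had log2 changes of -0.03 and -0.06, and Cox7a2l had one of -0.07 (95% interval -0.25 to 0.12).

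Within the Cox7a family, Cox7a2, the common isoform, had 15401, 16250 and 17618 in BCS EPLMs, against 13115, 14799 and 15019 in WT EPLMs (log2 change 0.20, SE 0.07, adjusted p = 0.171, limma). Cox7a1, the heart and muscle isoform, had 19.7, 19.1 and 32.4 in BCS EPLMs, against 14.4, 15.3 and 16.8 in WT EPLMs (log2 change 0.54, adjusted p = 0.176, limma). The Cox7a1 levels lay around the array median, near background, with BCS replicate 3 above the other 2 BCS arrays. For Cox8, the single-symbol probe sets of the ubiquitous Cox8a were dim (36.3 to 45.1 on its brightest), so the Cox8 isoforms could not be compared at a measured level.

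Complex V had higher means in 15 of 17 genes and a median log2 change of 0.08. None passed the adjustment by limma or by the methods' t-test, and both tests gave 4 higher and 0 lower genes at an unadjusted p under 0.05. By limma, 11.3% of all genes and 19.4% of bright genes were higher at that p, and 11.7% and 18.3% lower. Every BCS array was above every WT array in 6 genes, Atp5b, Atp5g3, Atp5j, Atp5k, Atp5mpl and Atp5o. The same held in 14.5% of all genes and 22.8% of bright genes. Every BCS array was below every WT array in 1 gene, Atp5h, against 14.2% of all genes and 20.6% of bright genes. Atp5b, the catalytic beta subunit, had 14497, 16790 and 14999 in BCS EPLMs, against 14404, 12647 and 11617 in WT EPLMs (log2 change 0.26, SE 0.09, adjusted p = 0.14, limma). Its lowest BCS array was just above its highest WT array. Atp5k, the subunit e gene with the NRF1 site shown above, had a log2 change of 0.22 (adjusted p = 0.146, limma).

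The c ring of complex V is built from 1 mature protein that 3 genes encode. Atp5g1 had 1166, 1732 and 1554 in BCS EPLMs, against 1236, 1059 and 1190 in WT EPLMs (log2 change 0.34, SE 0.16, adjusted p = 0.321, limma), the largest change of the complex. Atp5g3, the brightest of the 3, had 18563, 18694 and 19245 in BCS EPLMs, against 17280, 16552 and 17069 in WT EPLMs (log2 change 0.15, SE 0.04, adjusted p = 0.0965, limma), and Atp5g2 had a log2 change of -0.02 (95% interval -0.31 to 0.28). The genotypes overlapped for Atp5g1 and Atp5g2 and not for Atp5g3. Atp5h, the brightest gene of the complex, had 23204, 22902 and 23980 in BCS EPLMs, against 24299, 24220 and 25989 in WT EPLMs (log2 change -0.09, adjusted p = 0.351, limma).

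By the brightest probe set of each gene, the shift was least in the brightest genes. For the 8 genes with a mean of 100 to 1000 the median log2 change was 0.28, with higher means in all 8. It was 0.12 for the 28 genes from 1000 to 5000, 0.09 for the 26 genes from 5000 to 15000 and 0.00 for the 17 genes at 15000 or more, of which 9 had higher means. The medians of all genes in the same ranges were 0.02, 0.02, 0.03 and 0.01. The 10 genes under 100 had a median of 0.05, against 0.00 for all genes at that level. Dimmer probe sets of the brightest genes did not all show so small a change. For Atp5pb the dimmer one had a log2 change of 0.35, against 0.05 for the brightest. For Atp5h the values were -0.07 and -0.09. The pattern thus describes the probe sets chosen and need not hold for the genes.

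**Figure D4:**
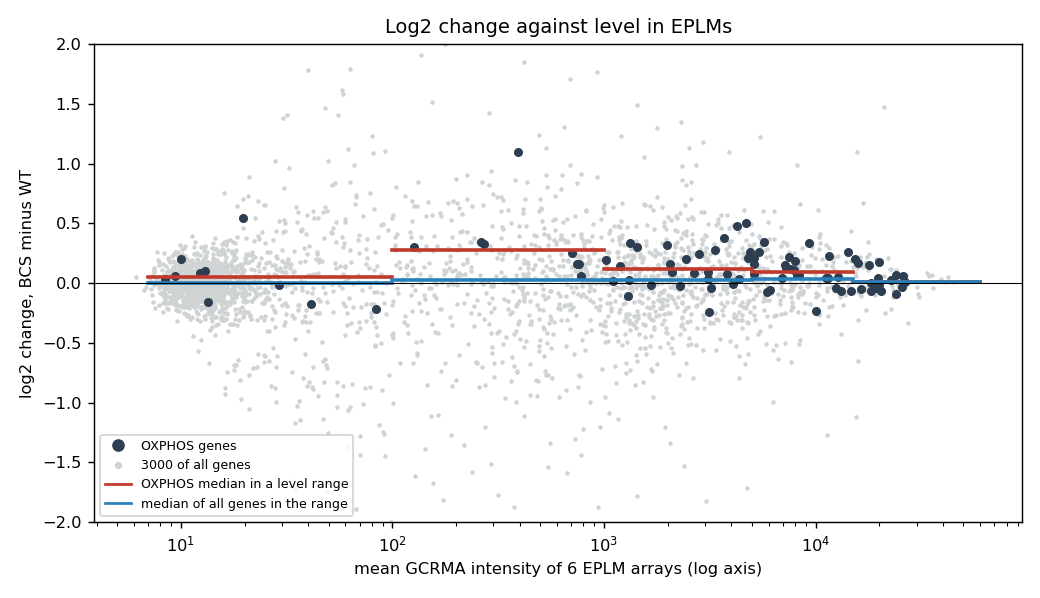
Log2 change (BCS minus WT) of the 89 OXPHOS genes (dark points) and of 3000 randomly drawn genes (gray points) against the mean GCRMA intensity over the 6 EPLM arrays (log axis), with points beyond 2 either way left out and medians per level range as lines. The OXPHOS median, by the brightest probe set of each gene, lies highest at 100 to 1000 (0.28) and reaches that of all genes at 15000 and above.

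The 3 BCS mice were not alike. Against the WT mean, the median deviation of the 89 genes on the log2 scale was 0.01 in BCS replicate 1, 0.13 in replicate 2 and 0.16 in replicate 3. It was -0.02, -0.01 and 0.03 in the WT replicates, and between -0.02 and 0.02 on every array over all genes. Of the 89 genes, 29, 50 and 57 lay above the highest WT array in BCS replicates 1, 2 and 3, and 22, 13 and 8 lay below the lowest. Of all 18193 genes, 6121, 5594 and 5784 lay above in these replicates, and 5077, 5805 and 5536 lay below. Among the 79 genes with a mean of at least 100, BCS replicate 1 was the lowest BCS array in 52. The median over the group was higher in BCS replicates 2 and 3 than in replicate 1. In complex III the BCS replicates deviated by 0.07, 0.31 and 0.34, against -0.01, 0.03 and 0.01 in the WT replicates. Complex IV deviated by -0.05, -0.05 and 0.08 in the BCS replicates, and complex II by 0.08, 0.11 and -0.05, against 0.13, -0.07 and -0.03 in the WT replicates.

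**Figure D5:**
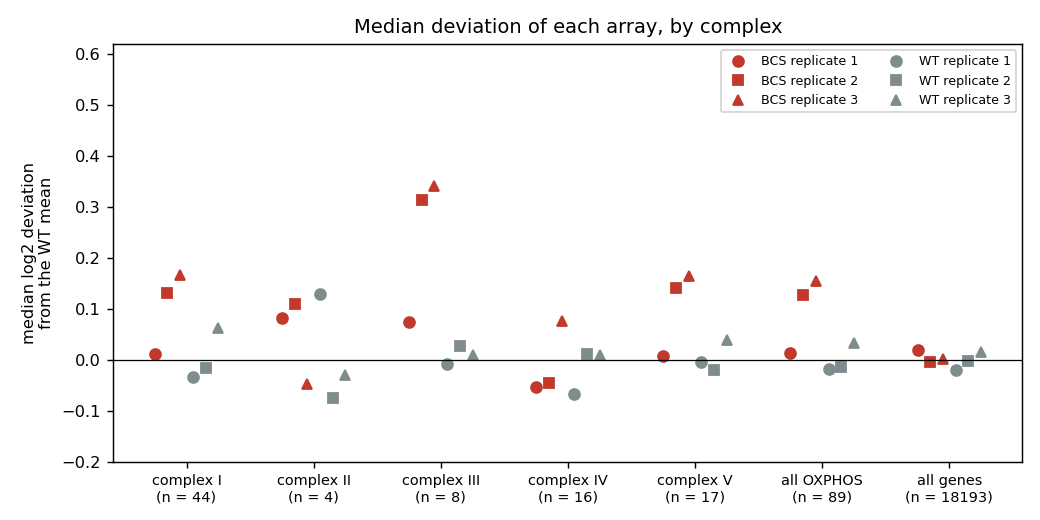
Median log2 deviation from the WT mean (y axis) of the genes of each complex, of all 89 OXPHOS genes and of all 18193 genes, for each of the 3 BCS arrays (red) and the 3 WT arrays (gray), with 1 marker shape per replicate number. BCS replicates 2 and 3 lie above the WT arrays in complexes I, III and V. BCS replicate 1 lies near 0 in complexes I and V and at 0.07, above the WT arrays, in complex III. The medians of all genes lie within 0.02 of 0.

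The calls changed when single arrays were left out. Each such fit has fewer arrays and thus less power, so a lost call does not show that a difference rests on 1 mouse. Without BCS replicate 1, 6 genes rose (the 3 named above with Ndufa10, Ndufab1 and Uqcrc1). Without WT replicate 1 only Ndufaf6 passed (adjusted p = 0.0462, limma), and without WT replicate 3 only Ndufv2 (adjusted p = 0.0357, limma). Without BCS replicate 2, BCS replicate 3 or WT replicate 2, none passed. The share of all genes that passed is not given for any fit without 1 array, so such counts have no background beside them. Over the 6 fits, the log2 change lay between 0.94 and 1.33 for Ndufaf6, between 0.31 and 0.38 for Ndufv2 and between 0.32 and 0.37 for Uqcrfs1, and the adjusted p reached 0.124, 0.0891 and 0.0959. The median of complex I lay between 0.07 (without BCS replicate 3) and 0.23 (without BCS replicate 1), that of complex III between 0.15 and 0.30 for the same 2 arrays, and that of complex IV between -0.07 and 0.02.

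Other probe sets of the same genes were read as a check on the choice of the brightest. In 50 of the 89 genes there was more than 1 probe set, and 67 of the 88 other probe sets had a change of the same sign as the brightest. Of the 88, 3 passed the test, all higher, namely 2 of Ndufv2 and 1 of Ndufs4. Of all 45037 probe sets, 1007 rose and 1465 fell. Sdhc, Cox5b and Atp5g2, whose changes were near 0, were among the genes whose probe sets differed in sign.

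The mitochondrial genome was represented by a single gene, ND5, a proton-pumping subunit of complex I, which fell. It had 15670, 12815 and 13817 in BCS EPLMs, against 18239, 18563 and 18133 in WT EPLMs (log2 change -0.38, SE 0.07, adjusted p = 0.0164, limma), with no overlap. The call was lost without WT replicate 2, BCS replicate 3 or WT replicate 3 (adjusted p = 0.0601, 0.063 and 0.0561, limma). Over all alternatives, 12 settings kept the call and 6 lost it. The methods' t-test gave 0 calls for it after adjustment. The transcript is polyadenylated in the mitochondrion, and 1 gene does not speak for the other mitochondrial transcripts.

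Genes that assemble or feed the chain were read from lists. Over all genes, the values beside which each list stands are a median log2 change of 0.01, 51.7% with higher means, 3.15% that rose and 4.7% that fell, and 11.3% higher and 11.7% lower at an unadjusted p under 0.05 (19.4% and 18.3% of bright genes). Of 27 further assembly factors of complexes I to V, none passed in either direction by limma or by the methods' t-test, 8 (29.6%) were higher and 0 lower at an unadjusted p under 0.05 by limma, and the median log2 change was 0.16. Of 14 genes for electron carriers and ubiquinone synthesis none passed by either test, 7 (50%) were higher and 0 lower at an unadjusted p under 0.05 by limma, and the median was 0.30. Cycs, cytochrome c, had 21531, 24489 and 25610 in BCS EPLMs, against 22734, 22347 and 25322 in WT EPLMs (log2 change 0.02, 95% interval -0.14 to 0.19). The 17 genes of pyruvate dehydrogenase and the tricarboxylic acid cycle had none past either test, 5 higher (29.4%) and 1 lower at an unadjusted p under 0.05 by limma, and a median of 0.10. For the 9 genes of adenine nucleotide and phosphate exchange the median was 0.05, none passed either test, and 2 (22.2%) were higher at an unadjusted p under 0.05 by limma. Atpif1, the inhibitor of the ATP synthase, had a log2 change of 0.05 (SE 0.06).

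The mitochondrial ribosome, which translates the mitochondrially encoded subunits, had 6 of 76 genes that rose, or 7.89%, and 0 that fell by limma (0 in either direction by the methods' t-test after adjustment). In all, 71 had higher means in BCS EPLMs (93.4%, against 51.7% of all genes), and the median log2 change was 0.22, with 29 higher (38.2%) and 1 lower at an unadjusted p under 0.05 by limma. Among all genes 3.15% rose, among bright genes 5.61%. Mrps28 had the largest rise, with 878, 1253 and 1165 in BCS EPLMs, against 690, 692 and 615 in WT EPLMs (log2 change 0.71, SE 0.16, adjusted p = 0.0396, limma). Mrpl45 and Mrps22 followed with log2 changes of 0.69 (adjusted p = 0.0345, limma) and 0.59 (adjusted p = 0.0304, limma), and BCS replicate 1 was again the lowest BCS array in all 3. The count was 11 without BCS replicate 1, 2 without WT replicate 1 or 2 and 0 without BCS replicate 2, BCS replicate 3 or WT replicate 3. The share of all genes that rose is not given for these fits. The medians under these fits lay between 0.20 and 0.29.

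Among 15 regulators of mitochondrial biogenesis, 1 rose and 0 fell by limma (8, or 53.3%, higher and 1 lower at an unadjusted p under 0.05, and 0 called by the methods' t-test), and the median log2 change was 0.28. Gabpb1, a subunit of the ETS factor that binds nuclear OXPHOS promoters, rose, with 906, 789 and 928 in BCS EPLMs, against 482, 439 and 365 in WT EPLMs (log2 change 1.03, SE 0.16, adjusted p = 0.00616, limma). The call held in each of the 6 fits without 1 array (adjusted p up to 0.0292, limma). Gabpa, its DNA-binding partner, had a log2 change of 0.21 (adjusted p = 0.0957, limma). Nrf1 had 333, 322 and 327 in BCS EPLMs, against 218, 226 and 184 in WT EPLMs (log2 change 0.65, SE 0.16, adjusted p = 0.0518, limma), and did not pass.

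Ppargc1a, which encodes the coactivator PGC-1 alpha, was dim in both genotypes and little above background, with 21.4, 29.0 and 39.5 in BCS EPLMs, against 45.1, 81.2 and 94.3 in WT EPLMs (log2 change -1.24, SE 0.31, adjusted p = 0.0545, limma). Ppargc1b, which encodes a related coactivator, had 117, 146 and 146 in BCS EPLMs, against 73.5, 84.0 and 94.6 in WT EPLMs (log2 change 0.69, SE 0.19, adjusted p = 0.0735, limma). Neither gene passed. Tfam, which packages and transcribes mitochondrial DNA, had a log2 change of 0.33 (SE 0.13, adjusted p = 0.203, limma).

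Marker genes of several cell types differed between the genotypes. In bulk RNA, fewer cells of a type and less RNA per cell cannot be told apart. Of 7 B lineage markers 5 rose, and the summed intensity of the 7 was 81790 to 88162 in BCS EPLMs, against 34192 to 60095 in WT EPLMs. Pax5, among those that rose, had a mean under 100 over the arrays (62). Of 9 markers of plasmacytoid dendritic cells 7 fell (sum 46875 to 62357 in BCS EPLMs, against 89952 to 100220 in WT EPLMs). Of 8 NK cell markers 2 fell (sum 1438 to 4122 in BCS EPLMs, against 8187 to 14527 in WT EPLMs). Klrd1 had 1087, 1306 and 2430 in BCS EPLMs, against 6901, 8110 and 7943 in WT EPLMs. Klrk1 lay under 100 throughout (15.0, 17.1 and 16.8, against 45.4, 49.9 and 32.1). The other NK markers had lower means in BCS EPLMs, with overlapping genotypes. Of 10 granulocyte and monocyte markers 1 fell (10417 to 64114 in BCS EPLMs, against 27920 to 95937 in WT EPLMs), while 0 of 7 erythroid and megakaryocyte markers and 0 of 5 T lineage markers passed in either direction by limma or by the methods' t-test (2 and 1 lower at an unadjusted p under 0.05 by limma). Of 6 lymphoid progenitor markers 1 rose and 2 fell. Of 9 cycling markers 1 rose, Cdk1, while 5 were higher and 0 lower at an unadjusted p under 0.05 by limma, 7 had higher means and the median log2 change was 0.29, against 0.01 for all genes. Their sums were 98456 to 110900 in BCS EPLMs, against 90143 to 102480 in WT EPLMs. Over all genes 3.15% rose and 4.7% fell. The part of these shifts in the OXPHOS values was not tested. The B lineage count lay between 1 and 5 without 1 array (1 without BCS replicate 2 or 3, 2 without WT replicate 1), and the count of 7 lower plasmacytoid markers was the same in every such fit.

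Of the genes of the sorting gate, Kit had 467, 464 and 501 in BCS EPLMs, against 472, 460 and 511 in WT EPLMs, and Cd93 did not pass (log2 change 0.29, adjusted p = 0.322, limma). Ptprc, whose products include B220, fell (log2 change -0.40, SE 0.07, adjusted p = 0.0101, limma). This RNA signal is not a measure of the B220 protein used for sorting. The gene of NK1.1 is not analysed here. Pou2af1, the mouse gene of OBF1, had 10784, 10858 and 10323 in BCS EPLMs, against 6278, 7250 and 3401 in WT EPLMs (log2 change 0.99, SE 0.23, adjusted p = 0.0436, limma). This call was kept in only 2 of the 6 fits without 1 array, those without WT replicate 2 or 3. Since the transgene is a human cDNA, this value alone does not check the labels.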

How the data were processed

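Expression was measured on Mouse 430v2 GeneChips with RNA of sorted EPLMs from single mice, 3 BCS and 3 WT. Labeling is given as 2-cycle in the methods and as 1-cycle in the labels. The authors normalized the arrays with GCRMA (version not given in the sources used here), and the deposited values are intensities on a linear scale, with a median of 20 on each EPLM array. The number of arrays limits the precision. Large preB columns were left out, since the genes were defined on EPLMs.

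Log2 of the intensity plus 1 was computed for the 45037 probe sets outside the 64 control features and fitted with limma 3.58.1 (lmFit and eBayes, trend on intensity) in R 4.3.3, BCS minus WT, without covariates. Benjamini-Hochberg adjustment covered all probe sets, and a gene rose or fell at an adjusted p under 0.05. The replicates are separate mice. Of the probe sets, 34945 have 1 gene symbol, 932 several and 9160 none, and only the first were used, the brightest per gene. A list is described by counts and medians beside those of all genes.

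The OXPHOS genes, the lists and the tests were chosen with earlier results of these data known. Named genes are those called, the largest change and the brightest of each complex, the Sdh genes, the isoform families, up to 3 called genes per pathway list and fixed regulators, and others were chosen after their values were seen. Alternatives were the methods' t-test, other eBayes settings, a filter on dim probe sets, other scalings, array weights, offsets, other probe sets per gene, the replicate number as a block, stricter calls and leaving out each array. Medians of complexes and counts of lists without each array were added after the data had been seen.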

Additional observations from a re-analysis of the deposited data

How the results depend on the processing

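The count of 3 higher OXPHOS genes was 0 with the methods' t-test and at an adjusted p under 0.01, 1 without the intensity trend (Ndufaf6), with a floor at 16 (Uqcrfs1) and with 2-fold medians (Ndufaf6), 5 with array weights and with the mean of all probe sets per gene, and 6 with the filter on dim probe sets, which left 79 of the genes. With that filter 1 gene fell, Ndufa3. The other scalings and an offset of 16 gave the same 3 genes. Leaving out each array in turn gave 0 to 6 higher and 0 lower genes. With the replicate number as a block the count was 1 (Ndufv2). The share of all genes called under each alternative is not given, so these counts have no background beside them. Same-numbered BCS and WT arrays correlated in their deviations with r = 0.01, 0.10 and 0.10 over 14957 probe sets. Not every array correlated best with its own number. Deviations from group means constrain one another, so these values cannot decide whether same-numbered mice were paired. The labels give only the number. The median log2 change of the OXPHOS genes lay between 0.05 and 0.12 without 1 array. It was 0.16 for the 71 genes that have a probe set without a suffix for shared or similar transcripts. Of 740 values of the named genes, 639 kept direction and side of the threshold, 61 lost a call and 18 gained one. No called change turned its sign, while 22 values of 9 genes that were not called did, and the log2 changes of these genes in the report were at most 0.07 in size. The mean of all probe sets gave 0.14 for Atp5g2, 0.012 for Cox6a1 and -0.037 for Sdhc, and the probe set without a suffix 0.041 for Cox6b1. Without 1 array the log2 changes ran -0.091 to 0.087 for Atp5g2, -0.15 to 0.040 for Cox6a1, -0.073 to 0.042 for Cox6b2, -0.13 to 0.012 for Cox7a2l, -0.021 to 0.10 for Cox7b2, -0.029 to 0.096 for Cycs, -0.076 to 0.15 for Sdhc and -0.037 to 0.035 for Uqcrb. The causes were not tested. Genes under an intensity of 100 hardly exceed background, and their changes are not interpretable.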
